A study of Mus musculus with 45 samples.

Results

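The 10 genes described here mark the primitive streak and the mesoderm and endoderm that leave it: T (brachyury), Eomes, Mixl1, Gsc, Foxa2, Mesp1, Tbx6, Evx1, Wnt3 and Lhx1. They were chosen by gene symbol from the 35372 genes of the count table, and all 10 had a row in each of the 45 libraries. Levels are given as CPM, a gene's read count scaled to the library's total of reads assigned to genes, so that libraries of different depth can be compared.

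The libraries are strand-specific, ribosomal RNA-depleted RNA-seq of bulk cultures of male E14tg2a mouse embryonic stem cells (ESCs), a 129/Ola line that the paper lists as wild-type. The cells had been kept in 2iL (serum-free N2B27 with LIF, the GSK3 inhibitor CHIR99021 and the MEK inhibitor PD0325901) or in SL (serum with LIF). They then entered 1 of 3 courses: EB, aggregates in suspension in serum without LIF; EpiSC, adherent cells in N2B27 with Fgf2 and activin A; or Neural, adherent cells in N2B27 alone. Each course was sampled on days 1, 1.5, 2, 2.5, 3, 5 and 7. There are 23 libraries from 2iL, 3 of them at day 0, and 22 from SL, 1 of them at day 0; EpiSC cells from 2iL at day 5 are not analysed here. From day 1 on there is 1 library for each medium, course and day, without replicate cultures. The 3 day 0 libraries from 2iL, 1 labelled for each course, give the spread of the day 0 test between the media. In the other tests below the media, the courses or the neighbouring days stand in for replicates, and each p-value measures the spread between those libraries. Days 1 to 2, days 2.5 and 3, and days 5 and 7 were taken as 3 windows.

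In the gastrulating mouse embryo, Wnt3 and Nodal signals from and around the posterior epiblast start the primitive streak, where epiblast cells turn on T, Eomes and Mixl1 and move inwards. Cells that leave early through the posterior and middle streak pass through a Mesp1-positive state toward cardiac and cranial mesoderm, later ones express Tbx6 and become paraxial mesoderm, and those of the anterior streak express Gsc, Foxa2 and Lhx1 and give axial mesoderm and definitive endoderm. Foxa2, Lhx1, Eomes and Gsc also act outside the streak, in the visceral endoderm, and Foxa2 in the floor plate of the neural tube. In ESC cultures serum, activin and Wnt signalling favour these fates, while serum-free monolayers favour neural ones.

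Library totals ran from 13093226 to 39804240 reads assigned to genes, with a median of 18222720. The EB libraries from 2iL were deeper (median 34490692) than the others (median 17297450), and that of day 5 was the deepest of all. A gene at 0 reads could therefore still have lain at up to 0.0754 to 0.229 CPM, the level of 3 reads, which covers counting error only. The labels of day 0 and of the Neural course could be checked in part against marker genes. At day 0 the pluripotency genes averaged 576 CPM for Pou5f1, 854 CPM for Nanog and 726 CPM for Esrrb. The neural progenitor gene Sox1 reached its highest level, 225 CPM, in the Neural course from 2iL on day 3. Pax6 averaged 58.1 CPM in the 4 Neural libraries of days 5 and 7. On those days the listed neural progenitor genes summed to 260 to 616 CPM in Neural, 159 to 327 CPM in EpiSC and 99.2 to 255 CPM in EB. Neural and EpiSC thus overlapped. In bulk cultures, fewer cells that express a gene and less RNA per cell cannot be told apart.

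Of the 10 genes, 9 have an entry among the RefSeq promoters of the GRCm38.p6 assembly (250 bases before to 50 after a start site), while Mixl1 is named only. Each entry was searched on both strands for AGGTGTGA (a T-box half-site), GTCTAGAC (a Smad-binding element), AATNCACA (a Foxh1 site, where N is any base) and CTTTGA (the core recognised by TCF and LEF, the factors through which Wnt signals act). The first member with a match is T, shown because its level in EBs rose most among the genes that had reads in every library; positions count from the start site as +1, with no position 0, and the capitals mark the TCF and LEF core, which begins at -234 and reads CTTTGA on the other strand. The stretch is chr17:8434173-8434442, on the plus strand, from -250 to 20, and its start site is also that of the GENCODE gene.
T promoter: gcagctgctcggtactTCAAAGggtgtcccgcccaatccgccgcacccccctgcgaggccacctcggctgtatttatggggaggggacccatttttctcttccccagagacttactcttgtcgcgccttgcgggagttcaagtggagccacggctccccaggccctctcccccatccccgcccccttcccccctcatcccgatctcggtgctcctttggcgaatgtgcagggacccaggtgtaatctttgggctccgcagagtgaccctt

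The second is Mesp1, the only member with a T-box half-site, which is shown because its reads were almost confined to late EBs. Its 3 matches lie on chromosome 7, whose minus strand carries the gene, around a RefSeq start that lies 198 bases inside the start of the GENCODE gene. The first 2 stretches below hold the match on the strand opposite to the gene and the last holds it on the gene's own strand, and the capitals mark it.
Mesp1 T-box half-site, chr7:79793568-79793597, match at +6: aaggggcccgctTCACACCTagggctcagg
Mesp1 TCF and LEF core, chr7:79793645-79793674, match at -72: ccctgctatggtTCAAAGggttcaggccct
Mesp1 TCF and LEF core, chr7:79793604-79793633, match at -31: ggctcgagccggCTTTGAtatgctgatgaa

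Of the 3 RefSeq starts of Foxa2, 1 has a TCF and LEF core at +16, and the entries of Eomes, Gsc, Tbx6, Evx1, Wnt3 and Lhx1 hold none of these letters. Among 32851 mouse promoters of the same length, 16.0% hold the TCF and LEF core, 3.60% the Foxh1 site, 1.28% the T-box half-site and 0.213% the Smad-binding element. These matches describe the letters of a window and were tested for nothing.

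The genes had their highest levels late and mostly in EBs. In the EB library from 2iL on day 5, 7 of the 10 reached the highest level of all 45 libraries (T, Eomes, Mixl1, Gsc, Evx1, Wnt3 and Lhx1). Mesp1 and Tbx6 did so in the EB library from 2iL on day 7. Foxa2 was the exception, with its highest level in the Neural course from SL on day 7. The share of all genes that peaked in each of these libraries is not given here, so these counts have no share to compare with. The plot of levels by day shows each course of each gene.

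**Figure D1:**
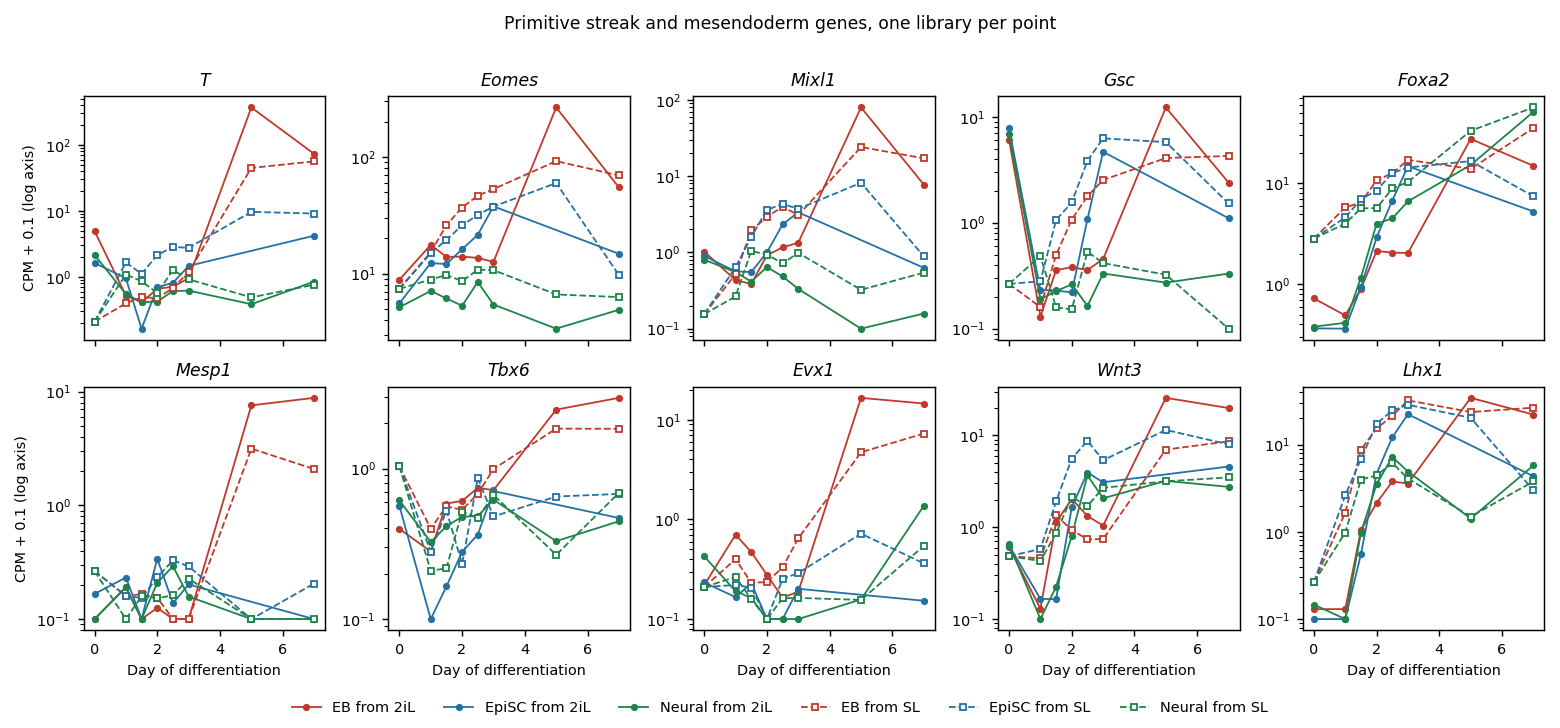
Level of each of the 10 genes (CPM on a log axis, after adding 0.1) against day of differentiation, 1 line for each medium and course and 1 point for each library. Solid lines are courses from 2iL and dashed lines those from SL, and the SL courses start from the single SL day 0 library. T, Mesp1 and Evx1 stay low until the EB libraries of days 5 and 7, while Foxa2 and Lhx1 are above day 0 in all 3 courses by days 2.5 and 3. In the EpiSC course both are lower on day 7 than on day 3.

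Compared per kilobase of exon, so that gene length does not enter, the highest levels spanned a wide range. On this RPKM scale (CPM divided by the exon length in kilobases), T reached 159.7, Eomes 63.9, Mixl1 34.5 and Foxa2 23.9. Gsc, Lhx1, Wnt3, Mesp1 and Evx1 followed between 5.75 and 9.57, and Tbx6 was lowest at 1.58. Gsc, Lhx1 and Wnt3, at 9.57, 8.39 and 8.31, are neighbours in this order, each read from 1 library, and their order was not tested. Eomes was also the gene with the highest floor, at 3.27 CPM or more in every library, whereas Mesp1 was at 0 reads in 16 libraries and Evx1 in 7.

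Wnt3, a secreted ligand needed to form the streak, stood at 25.6 and 19.8 CPM in EBs from 2iL on days 5 and 7 and at 6.91 and 8.53 CPM in EBs from SL. In the Neural course it stood at 3.10 and 2.66 CPM from 2iL and at 3.07 and 3.39 CPM from SL. The EpiSC libraries held 11.4 and 7.88 CPM from SL and 4.48 CPM from 2iL on day 7. The Neural libraries were thus all below the other courses, and the EpiSC libraries lay within and below the EB range.

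T, the T-box factor of nascent mesoderm, was at 369.7 CPM on day 5 and 73.1 CPM on day 7 in EBs from 2iL, and at 44.7 and 56.2 CPM in EBs from SL. EpiSC cultures held 9.59 and 9.04 CPM from SL and 4.11 CPM from 2iL. No Neural library of those days exceeded 0.750 CPM. The 3 courses did not overlap for T.

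Eomes, a T-box factor of the early streak and definitive endoderm, was at 266 and 54.7 CPM in EBs from 2iL and at 91.9 and 69.3 CPM in EBs from SL on days 5 and 7. EpiSC cells from SL went from 59.7 CPM on day 5 to 9.62 CPM on day 7, and those from 2iL stood at 14.7 CPM on day 7. Neural libraries held 3.27 to 6.52 CPM. Tbx6, the T-box factor of paraxial mesoderm, stayed low everywhere: 2.36 and 2.85 CPM in EBs from 2iL, 1.74 CPM on both days in EBs from SL, and under 1 CPM in the other 41 libraries.

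Mixl1, a factor of mesendoderm, held 79.1 and 7.64 CPM in EBs from 2iL and 23.9 and 17.0 CPM in EBs from SL on days 5 and 7. It held 8.07 and 0.788 CPM in EpiSC cells from SL, 0.528 CPM in those from 2iL on day 7, and 0 to 0.442 CPM in the Neural course. Its EB and EpiSC values overlapped, and its Neural values lay below both.

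Gsc, a repressor of the anterior streak and organizer, was at 12.1 and 2.29 CPM in EBs from 2iL, 3.97 and 4.16 CPM in EBs from SL, and 5.66 and 1.42 CPM in EpiSC cells from SL. Evx1, a homeobox gene of the posterior streak, was at 16.5 and 14.5 CPM in EBs from 2iL and 4.63 and 7.19 CPM in EBs from SL. Lhx1, a LIM homeobox gene of anterior mesendoderm and intermediate mesoderm, held 34.2 and 21.9 CPM from 2iL and 23.5 and 26.3 CPM from SL. Evx1 and Lhx1 in EBs lay above all Neural and EpiSC libraries of those days.

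Mesp1, a bHLH factor of the earliest mesoderm, was read almost only there. EBs from 2iL gave 297 reads (7.46 CPM) on day 5 and 327 reads (8.71 CPM) on day 7, and EBs from SL gave 56 reads (3.05 CPM) and 40 reads (1.98 CPM). All 4 Neural libraries of days 5 and 7 were at 0 reads, as were all 4 EB libraries of days 2.5 and 3. Every other library of the series gave at most 4 reads.

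Between EB and Neural on days 5 and 7, 9 of the 10 genes were higher in EB and none lower, by the quasi-likelihood test of edgeR at an adjusted p of 0.05 (Benjamini-Hochberg, over all 16467 genes tested). In this comparison 46.8% of all genes tested were called in either direction, 23.8% higher and 23% lower. The median log2 difference over the 10 genes was 4.34, beside 0.01 over all genes tested. T differed by 7.49 ± 0.51 on the log2 scale (SE, adjusted p = 1.3e-10, edgeR), Mixl1 by 7.34 ± 0.62 and Gsc by 4.93 ± 0.70. Evx1 differed by 4.52 ± 0.58, Eomes by 4.17 ± 0.44, Lhx1 by 3.06 ± 0.63, Tbx6 by 2.67 ± 0.43 and Wnt3 by 2.14 ± 0.50. With the Neural libraries at 0 reads, Mesp1 was at least 137-fold higher in EB (3 reads over the 4 Neural libraries as the floor). Foxa2 differed by -0.82 ± 0.44 (adjusted p = 0.13, edgeR) and did not pass.

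Between EpiSC and Neural on the same days, 5 genes were higher in EpiSC and 1 lower, where 36% of all genes were called, 18.6% higher and 17.3% lower. T was higher by 4.36 ± 0.54 on the log2 scale, Mixl1 by 4.16 ± 0.70, Gsc by 4.14 ± 0.76, Eomes by 2.23 ± 0.45 and Wnt3 by 1.47 ± 0.53 (adjusted p = 0.034, edgeR). Foxa2 was lower (-2.16 ± 0.51, adjusted p = 0.0018, edgeR). Wnt3 no longer passed without day 5 of either medium or day 7 from SL, at 1.12 to 1.53. Mesp1, Tbx6, Evx1 and Lhx1 did not pass, with Evx1 at -0.32 ± 0.78 and Tbx6 at 0.55 ± 0.52.

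Between EB and EpiSC, 6 genes were higher in EB and none lower, where 19.8% of all genes were called, 9.59% higher and 10.2% lower. They were Mesp1 (720 reads in 4 libraries against 2 reads in 3, a ratio of CPM of 163 with a 95% counting interval of 45 to 1349), Evx1 (4.84 ± 0.71 on the log2 scale), Mixl1 (3.18 ± 0.52), T (3.13 ± 0.44), Tbx6 (2.12 ± 0.47) and Eomes (1.94 ± 0.45). Gsc at 0.79 ± 0.59 and Wnt3 at 0.67 ± 0.55 did not pass, nor did Lhx1 at 1.81 ± 0.70 and Foxa2 at 1.35 ± 0.53 (adjusted p = 0.071 and 0.072, edgeR). Of the 10 extraembryonic endoderm markers listed with Foxa2 further on, 5 were also higher in EB than in EpiSC and none lower: Afp (6.23), Ttr (4.38), Apoa1 (3.75), Amn (2.32) and Gata6 (1.99). Their summed level was 285 to 2841 CPM in EB and 535 to 1047 CPM in EpiSC, and their part in these differences was not tested. These 3 comparisons share their libraries in pairs, so their values stand side by side and are not independent.

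**Figure D2:**
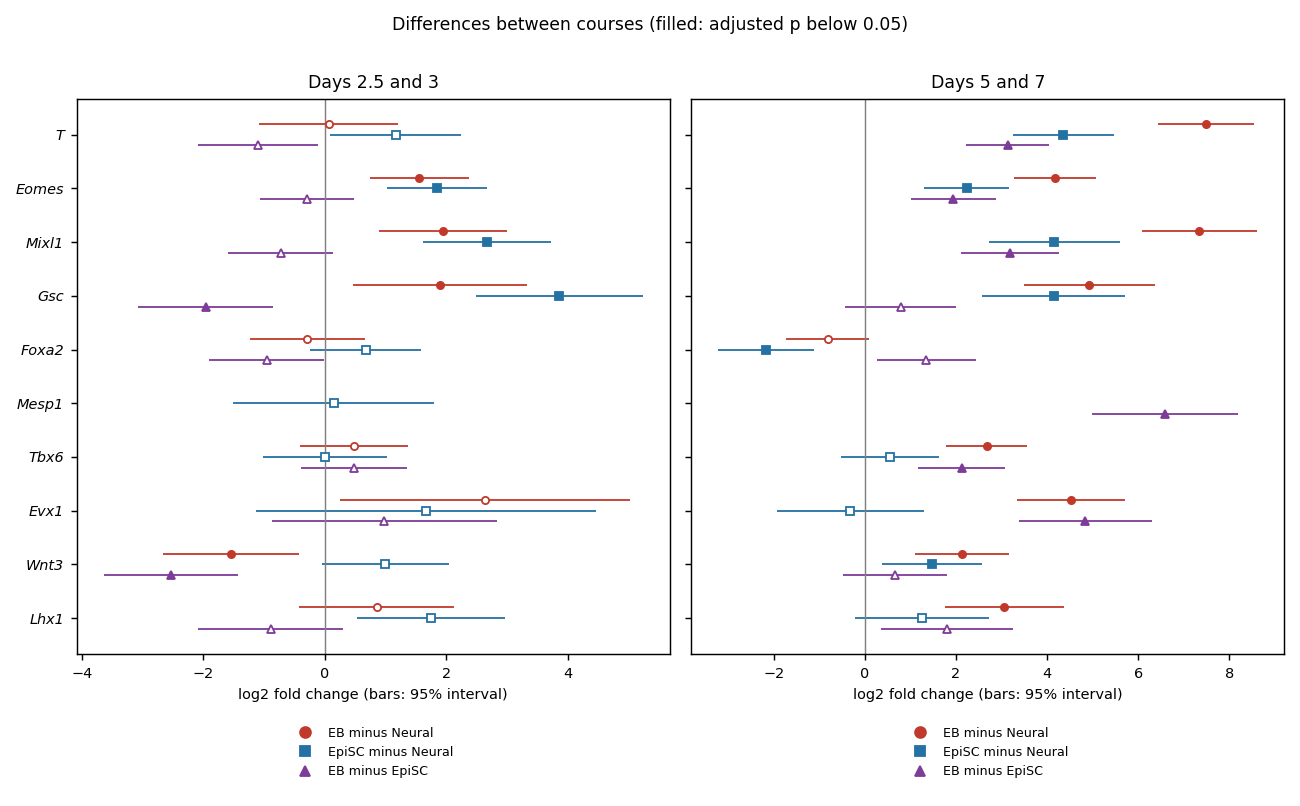
Log2 difference between courses for each gene, with its 95% interval, on days 2.5 and 3 and on days 5 and 7 (1 panel for each window, 1 symbol for each pair of courses). Filled points passed the test at an adjusted p of 0.05, and Mesp1 is left out where a group was at 0 reads. On days 5 and 7 every drawn gene but Foxa2 lies to the EB side of the Neural course, while on days 2.5 and 3 most points are open.

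On days 2.5 and 3 the course differences were fewer. Between EB and Neural, Eomes (1.55 ± 0.40 on the log2 scale), Mixl1 (1.94 ± 0.51) and Gsc (1.89 ± 0.69) were higher in EB. Wnt3 was lower there, by -1.54 ± 0.54 (adjusted p = 0.025, edgeR), and so was Mesp1, with 0 reads in the EB libraries against 7 in the Neural ones. With 3 reads as the EB floor the Mesp1 ratio was 3.68-fold, which leaves out the counting error of the 7 reads. These 5 genes compare with 39.7% of all genes called, 19.6% higher and 20.1% lower. Scaled by library totals, 63.7% of the calls over all genes were higher in EB, beside 49.4% here. T stood at 0.06 ± 0.56 and did not pass. Gsc no longer passed without day 2.5 of either medium or without day 3 from SL (1.37, adjusted p = 0.22, edgeR), and Wnt3 without day 2.5 or day 3 from 2iL or day 3 from SL (-1.44 to -1.69).

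The levels behind these differences were small for some genes and not for others. Eomes held 13.5 and 12.5 CPM in EBs from 2iL and 46.4 and 52.9 CPM in EBs from SL, against 5.33 to 10.7 CPM in the Neural course. Gsc held 0.258 and 0.353 CPM in EBs from 2iL and 1.68 and 2.43 CPM in EBs from SL, against 0.0638 to 0.432 CPM. Eomes did not overlap between the courses and Gsc did, its lowest EB values coming from 2iL.

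EpiSC cells were above the Neural course for the same 3 genes in this window: Gsc by 3.86 ± 0.66 on the log2 scale (adjusted p = 0.00058, edgeR), Mixl1 by 2.67 ± 0.51 and Eomes by 1.85 ± 0.40, where 13.3% of all genes were called, 6.69% higher and 6.58% lower. Scaled by library totals, 67.9% of those calls were higher, beside 50.4%. Lhx1 missed the threshold at 1.74 ± 0.59 (adjusted p = 0.052, edgeR). Against EpiSC cells, EBs had less Gsc (-1.96 ± 0.54), Wnt3 (-2.53 ± 0.54) and Mesp1 (0 reads against 9). With 3 reads as the EB floor the Mesp1 ratio was 4.09-fold, which leaves out the counting error of the 9 reads. These 3 of the 10 genes were a share near the 29.1% of all genes called in either direction. Wnt3 stood at 2.99 to 8.63 CPM in the 4 EpiSC libraries and at 0.636 to 1.22 CPM in the 4 EB libraries, with no overlap. Without day 3 from 2iL, the Gsc difference was -1.46 (adjusted p = 0.097, edgeR).

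On days 1 to 2, EpiSC and Neural differed in none of the 10 genes by edgeR, where 2.13% of all genes were called, 52.6% of these higher in EpiSC (90.4% when scaled by library totals). Only Eomes had an unadjusted p under 0.05, at 1.01 ± 0.32 on the log2 scale (adjusted p = 0.10, edgeR). DESeq2 called 1 of the 10.

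Along the EB course, the genes changed in different directions at first and then rose nearly together. From day 0 to days 2.5 and 3, Lhx1 rose by 7.18 ± 1.16 on the log2 scale, Foxa2 by 2.51 ± 0.68 and Eomes by 1.90 ± 0.37, while Gsc (-2.88 ± 0.81) and T (-1.73 ± 0.70, adjusted p = 0.039, edgeR) fell. These 5 genes compare with 54.3% of all genes called, 26.1% higher and 28.3% lower. The day 0 group held 3 libraries from 2iL and 1 from SL, and both falls were in cells from 2iL. From SL, Gsc stood at 0.165 CPM at day 0 and at 0.316 CPM or more in every library of days 2.5 and 3. T from SL stood at 0.110 CPM at day 0 and at 0.578 CPM or more on those days. From days 2.5 and 3 to days 5 and 7, 9 genes rose and none fell, where 44.2% of all genes were called, 20.8% higher. T rose by 7.23 ± 0.74, Evx1 by 5.63 ± 0.63, Wnt3 by 4.10 ± 0.66, Mixl1 by 3.64 ± 0.56, Gsc by 2.43 ± 0.76, Foxa2 by 2.03 ± 0.59, Eomes by 1.89 ± 0.36 and Tbx6 by 1.64 ± 0.39. Mesp1 went from 0 to 720 reads over the 4 libraries, at least 212-fold, and Lhx1 did not pass at 1.35 ± 0.69 (adjusted p = 0.12, edgeR).

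Some of these values depended on 1 library. Without EBs from 2iL on day 5, the late rise of Foxa2 was 1.14 (adjusted p = 0.12, edgeR) and that of Gsc 1.61 (adjusted p = 0.11, edgeR) on the log2 scale, and neither passed. The early fall of T was -0.87 (adjusted p = 0.34, edgeR) without the day 0 library of the 2iL EB course, which held 4.88 CPM beside 1.53 and 2.05 CPM in the other day 0 libraries from 2iL, and it also failed to pass without 5 of the other libraries (-1.66 to -1.79). Gsc also missed without day 2.5 or day 3 from 2iL, at 2.05 and 2.01.

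In the EpiSC course 5 genes rose early. From day 0 to days 2.5 and 3, Lhx1 rose by 8.13 ± 1.15 on the log2 scale, Foxa2 by 3.59 ± 0.68, Wnt3 by 3.15 ± 0.69, Eomes by 2.06 ± 0.37 and Mixl1 by 1.97 ± 0.60, where 53.2% of all genes were called, 25.5% higher and 27.7% lower. From days 2.5 and 3 to days 5 and 7, T rose by 2.07 ± 0.68 (adjusted p = 0.027, edgeR) and no other gene passed, where 25.3% of all genes were called, 12.9% higher. Without day 2.5 or day 3 from 2iL or day 7 from SL, T no longer passed, at 1.73 to 1.90. In EpiSC cells from SL, Eomes and Mixl1 were highest on day 5, at 59.7 and 8.07 CPM, and stood at 9.62 and 0.788 CPM on day 7. Lhx1 there was highest on day 3, at 28.4 CPM, and stood at 2.89 CPM on day 7. Gsc was highest on day 3 as well, at 6.15 CPM, and stood at 1.42 CPM on day 7. In EpiSC cells from 2iL, Lhx1, Mixl1 and Foxa2 were at 22.2, 3.24 and 14.7 CPM on day 3 and at 4.22, 0.528 and 5.17 CPM on day 7. These single libraries carry no test.

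In the Neural course, Lhx1 rose by 6.38 ± 1.18 on the log2 scale from day 0 to days 2.5 and 3, Foxa2 by 2.89 ± 0.68 and Wnt3 by 2.22 ± 0.69. Gsc fell by 4.74 on the log2 scale. Over all genes, 55% were called, 25.8% higher and 29.1% lower. The fall of Gsc was in cells from 2iL. From SL, Gsc stood at 0.165 CPM at day 0 and at 0.316 CPM or more in every library of days 2.5 and 3. From days 2.5 and 3 to days 5 and 7, Foxa2 rose further, by 2.28 ± 0.59 (adjusted p = 0.0031, edgeR), where 43.2% of all genes were called, 21.1% higher and 22.1% lower. Mesp1 went from 7 reads to 0 over 4 libraries and was also called. Its adjusted p of 0.0499 in edgeR lay at the threshold, and the call was lost when any 1 of the 8 libraries was left out. Wnt3 at days 2.5 and 3 missed without the Neural library from 2iL of day 2.5 (1.75, adjusted p = 0.063, edgeR).

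Onset, read as the first day at or above 10% of a gene's highest CPM anywhere, differed between the genes. In EBs from 2iL, T, Eomes, Mixl1, Foxa2, Mesp1, Evx1 and Wnt3 passed that mark on day 5 and Lhx1 on day 2.5, while Gsc and Tbx6 were above it at day 0. In EBs from SL, Foxa2 passed it on day 1, Lhx1 on day 1.5, Eomes on day 2 and Gsc on day 2.5, and T, Mixl1, Mesp1, Evx1 and Wnt3 on day 5. T, Mesp1 and Evx1 never passed it in the EpiSC and Neural courses. With a mark of 25% the onset in EBs from SL moved to day 3 for Foxa2 and to day 5 for Eomes and Gsc, T did not reach it, and 6 of the 10 genes kept their day. In EBs from 2iL, 8 of the 10 kept it, and in the other courses 4 to 7.

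Foxa2, a forkhead factor of the node, endoderm and floor plate, was the member whose late level did not follow EB. Its 4 Neural libraries on days 5 and 7 held 15.1, 51.1, 33.2 and 56.6 CPM, the first 2 from 2iL. Its EB libraries held 27.5 and 14.9 CPM from 2iL and 13.9 and 35.2 CPM from SL. EpiSC libraries held 16.6 and 7.36 CPM from SL and 5.17 CPM from 2iL. All 3 courses overlapped.

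Taken as a sum, the markers of extraembryonic endoderm, a lineage that also expresses Foxa2, moved with it. The summed level of 10 such markers (Afp, Amn, Apoa1, Col4a1, Cubn, Dab2, Gata6, Lama1, Sox7 and Ttr) ran from 4618 to 17258 CPM in the 4 Neural libraries of days 5 and 7. It was 285 and 751 CPM in EBs from 2iL, 2012 and 2841 CPM in EBs from SL, and 535 to 1047 CPM in the 3 EpiSC libraries. Most of the Neural sum came from the basement membrane genes Col4a1 (2009 to 9168 CPM) and Lama1 (1483 to 5453 CPM). Cubn, a receptor of the visceral endoderm, was at 816 to 1783 CPM in Neural and 49.0 to 490.3 CPM in EB, and the endoderm factor Gata6 at 37.9 to 109.7 CPM and 9.45 to 37.3 CPM. Dab2 and Sox7 also reached higher levels in Neural (561.9 and 23.8 CPM) than in EB (309.4 and 6.42 CPM). Afp, Ttr, Apoa1 and Amn went the other way, reaching 618.8, 112.9, 49.9 and 39.0 CPM in EB and 56.9, 73.2, 11.5 and 18.7 CPM in Neural. None of the 10 markers was at 0 in a library of those days.

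In EB against Neural on days 5 and 7, 6 of the 10 markers were lower in EB and 1, Afp (2.41 on the log2 scale), was higher. Over all genes, 23% were lower and 23.8% higher. In EpiSC against Neural, where Foxa2 was lower, all 10 markers were lower, beside 17.3% of all genes. Across the 45 libraries the log2 level of Foxa2 had a Pearson correlation of 0.82 with the log2 sum of the markers, and of 0.84 without Col4a1 and Lama1, a description only, since the libraries share courses and media. EBs from 2iL on day 5 stood outside this trend, with 27.5 CPM of Foxa2 beside 285 CPM of the markers, the lowest sum of the 11 libraries of days 5 and 7. The part of these cells in the Foxa2 level was not tested.

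**Figure D3:**
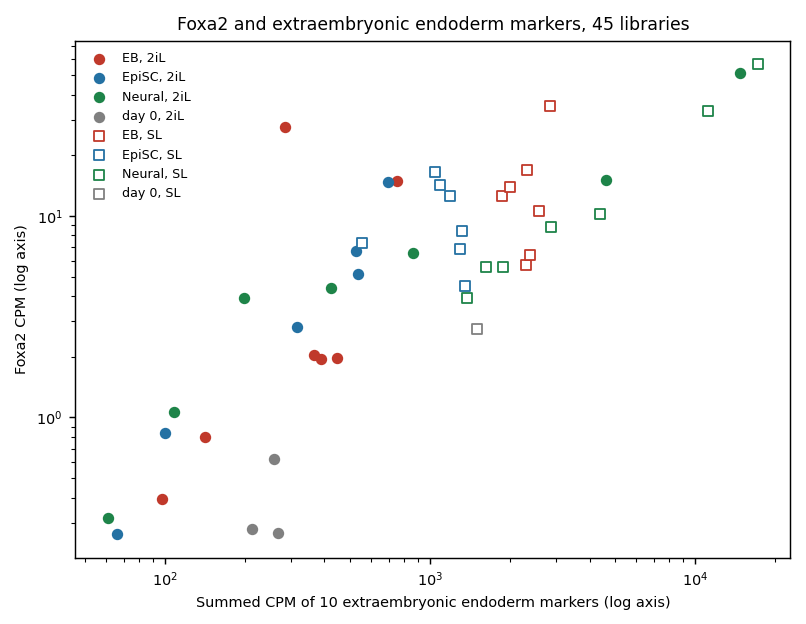
Foxa2 level (CPM) against the summed CPM of 10 extraembryonic endoderm markers, both on log axes, 1 point for each of the 45 libraries. Colours are courses, filled circles are 2iL and open squares SL; the Neural libraries of days 5 and 7 lie at the upper right, and EBs from 2iL on day 5 (27.5 CPM of Foxa2, 285 CPM of markers) lie apart at the upper left.

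At day 0 several of the genes stood at different levels in the 2 media. In 2iL, T held 4.88, 1.53 and 2.05 CPM against 0.110 CPM in SL. Gsc held 5.98, 7.65 and 6.82 CPM against 0.165 CPM, and Mixl1 held 0.922, 0.798 and 0.700 CPM against 0.0549 CPM. Foxa2 went the other way, with 0.625, 0.266 and 0.280 CPM in 2iL against 2.74 CPM in SL. The 2 media did not overlap for these 4 genes, but SL has a single library.

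By edgeR, 4 of the 7 members that could be tested at day 0 were called, where 30.8% of all 14948 genes were called. Counted as CPM over the 3 libraries from 2iL against SL, with 95% counting intervals, T was 30.0-fold higher (8.22 to 249.6, on 2 reads in SL), Gsc 40.1-fold (13.6 to 195, on 3 reads) and Mixl1 15.1-fold (2.60 to 606, on 1 read). In the fit, T was higher in 2iL by 4.71 ± 1.06 on the log2 scale (adjusted p = 0.01, edgeR), Gsc by 5.38 ± 0.55 (adjusted p = 0.00022, edgeR) and Mixl1 by 3.81 ± 1.0, and Foxa2 was lower (-2.65 ± 0.57). DESeq2 did not call Mixl1 (adjusted p = 0.089), and Foxa2 missed with the spread taken over all 45 libraries (-2.57, adjusted p = 0.076, edgeR). The spread comes from the 3 libraries in 2iL alone. Mesp1, Evx1 and Lhx1 had too few reads at day 0 to be tested.

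Most genes of a list that responds to Wnt signals, which CHIR99021 mimics, were also higher in 2iL at day 0. Over 10 Wnt target genes of the streak that could be tested, the median log2 difference was 2.04, beside 0.01 over all genes. Sp5 differed by 8.73, Notum by 4.21, Cdx1 by 4.0, Cdx2 by 3.19, Axin2 by 2.19 and Sp8 by 1.89 on the log2 scale. The others were Lef1 at 1.86, Tcf7 at 0.69, Nkd1 at -0.02 and Dkk1 at -0.98. The media also differ in PD0325901 and serum, so the part of CHIR99021 cannot be told apart and was not tested. The summed level of the list was 206 to 280 CPM in the 3 libraries from 2iL and 47.0 CPM in the SL library.

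After 1 day out of 2iL Gsc and Wnt3 stood lower than at day 0. Gsc stood at 0.0302, 0.132 and 0.0903 CPM on day 1 in the EB, EpiSC and Neural courses, each below every day 0 library from 2iL. Wnt3 stood at 0.0302, 0.0659 and 0 CPM, against 0.506, 0.532 and 0.560 CPM at day 0. Gsc fell by 6.81 and Wnt3 by 4.19 on the log2 scale (adjusted p = 0.0013 and 0.038, edgeR), a comparison made after the values were seen, where 28.6% of all genes were called. Summed over the 3 courses, Gsc went from 462 reads to 5 and Wnt3 from 37 to 2, and the Wnt3 call was lost without any 1 of 5 libraries, at -3.76 to -4.86. T stood at 0.423, 0.857 and 0.451 CPM, and its difference of -2.45 ± 1.58 did not pass (adjusted p = 0.27, edgeR). Of 11 Wnt target genes of the streak, 6 fell over that day and 2 rose.

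Over the following days the genes were lower in cells from 2iL than in cells from SL, or did not pass the test. On days 1 to 2, 6 of the 10 were lower from 2iL and none higher, where 44.3% of all genes were called, 22.5% lower. Lhx1 differed by -2.58 ± 0.45 on the log2 scale, Foxa2 by -2.44 ± 0.38, Gsc by -1.49 ± 0.50, Wnt3 by -1.29 ± 0.49, Mixl1 by -1.28 ± 0.39 and Eomes by -0.59 ± 0.22. Lhx1 on day 2, for example, stood at 2.04, 4.55 and 3.41 CPM from 2iL and at 15.2, 17.2 and 4.34 CPM from SL in the EB, EpiSC and Neural courses. On days 2.5 and 3, Evx1 (-2.21 ± 0.58), Gsc (-1.75 ± 0.45), Foxa2 (-1.33 ± 0.41) and Eomes (-0.97 ± 0.27) were lower from 2iL, where 18.4% of all genes were called, 9.72% higher and 8.69% lower. The Evx1 difference lay between levels of 0.546 CPM and below. Without EB day 3, Eomes was at -0.71, Foxa2 at -0.96 and Evx1 at -1.95, none of them called, and without EB day 2.5 Eomes (-0.77) and Foxa2 (-1.04) missed. None of the 10 was called by edgeR within EpiSC or within Neural alone, where 12.6% and 5.15% of all genes were called and 2 and 0 of the 10 had an unadjusted p under 0.05.

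The medium difference of Wnt3 on days 1 to 2 had different values in the courses. Within EpiSC it was -2.38 ± 0.55 on the log2 scale (adjusted p = 0.0034, edgeR), within Neural -1.86 ± 0.66 (adjusted p = 0.051, edgeR), and within EB 0.30 ± 0.49. The difference between courses was not tested in this window. Lhx1 and Foxa2 were lower from 2iL within EB, at -3.13 ± 0.46 and -2.87 ± 0.51, and within EpiSC, at -2.73 ± 0.49 and -2.48 ± 0.58, where 30.9% of all genes were called in each. Within Neural only Foxa2 passed, at -1.61 ± 0.56, where 23.2% of all genes were called. Over the courses together, Eomes, Gsc and Wnt3 each lost their call when some single course and day was left out, at -0.47 to -0.59, -1.17 to -1.40 and -1.02 to -1.25.

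The markers of extraembryonic endoderm were lower from 2iL too. At day 0 this was the direction of Foxa2 and opposite to that of T, Gsc and Mixl1. On days 1 to 2 it was that of Wnt3, Mixl1, Foxa2, Lhx1, Eomes and Gsc. Their sum was 213 to 267 CPM in the day 0 libraries from 2iL and 1501 CPM in SL, and all 7 that could be tested were lower in 2iL, with Afp and Ttr at 0 in 1 of the 3 libraries from 2iL. On days 1 to 2 the sum was 60.9 to 364 CPM from 2iL and 1301 to 2586 CPM from SL, and all 10 were lower, with a median log2 difference of -4.32 beside -0.0047 over all genes. On days 2.5 and 3 it was 387 to 862 CPM and 1088 to 4376 CPM, with all 10 lower and a median of -1.94. Their part in the medium differences was not tested.

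Within the EB course different genes passed between the media in the 2 later windows, with only Evx1 in both. On days 2.5 and 3, 5 of the 10 genes were lower in EBs from 2iL, where 18.9% of all genes were called: Foxa2 (-2.94 ± 0.57 on the log2 scale), Lhx1 (-2.90 ± 0.45), Gsc (-2.75 ± 0.68), Evx1 (-2.29 ± 0.65) and Eomes (-1.96 ± 0.35). Lhx1 stood at 3.67 and 3.48 CPM there, against 21.2 and 32.0 CPM in EBs from SL. On days 5 and 7, 4 genes were higher in EBs from 2iL and none lower, where 13.4% of all genes were called: T (1.72 ± 0.41), Mesp1 (1.70 ± 0.40), Wnt3 (1.55 ± 0.39) and Evx1 (1.42 ± 0.29). The change of the medium difference between the windows, tested after the values were seen, passed for Evx1 (3.70 ± 0.71), Gsc (3.18 ± 0.86), Lhx1 (3.05 ± 0.60), Foxa2 (2.79 ± 0.76) and Eomes (2.57 ± 0.49), where 5.14% of all genes were called, 1.97% in this direction. T at 1.93 ± 0.88 did not pass (adjusted p = 0.21, edgeR).

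The calls in both windows depended on single days. Without EB day 5, T was at 0.37 (adjusted p = 0.43, edgeR), Wnt3 at 1.20 and Evx1 at 1.0, and 1 gene, Mesp1, was called. Without EB day 7, Mesp1 (1.32) and Wnt3 (1.91) missed, T and Evx1 passed, and with 2 other genes the count was again 4. DESeq2 called 1 of the 10 on days 5 and 7 and 2 of the 10 for the change between windows. For that change, leaving out EB day 2.5, 3, 5 or 7 left 3, 0, 3 and 7 genes called. On days 2.5 and 3, Gsc, Foxa2 and Evx1 missed without EB day 3 (-2.69, -2.69 and -1.77) and 2 genes, Eomes and Lhx1, passed. Without EB day 2.5, Gsc (-2.78) and Evx1 (-2.56) missed and the other 3 passed. Extraembryonic endoderm markers were lower in EBs from 2iL in both windows, 9 of 10 on days 2.5 and 3 and 7 of 10 on days 5 and 7.

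**Figure D4:**
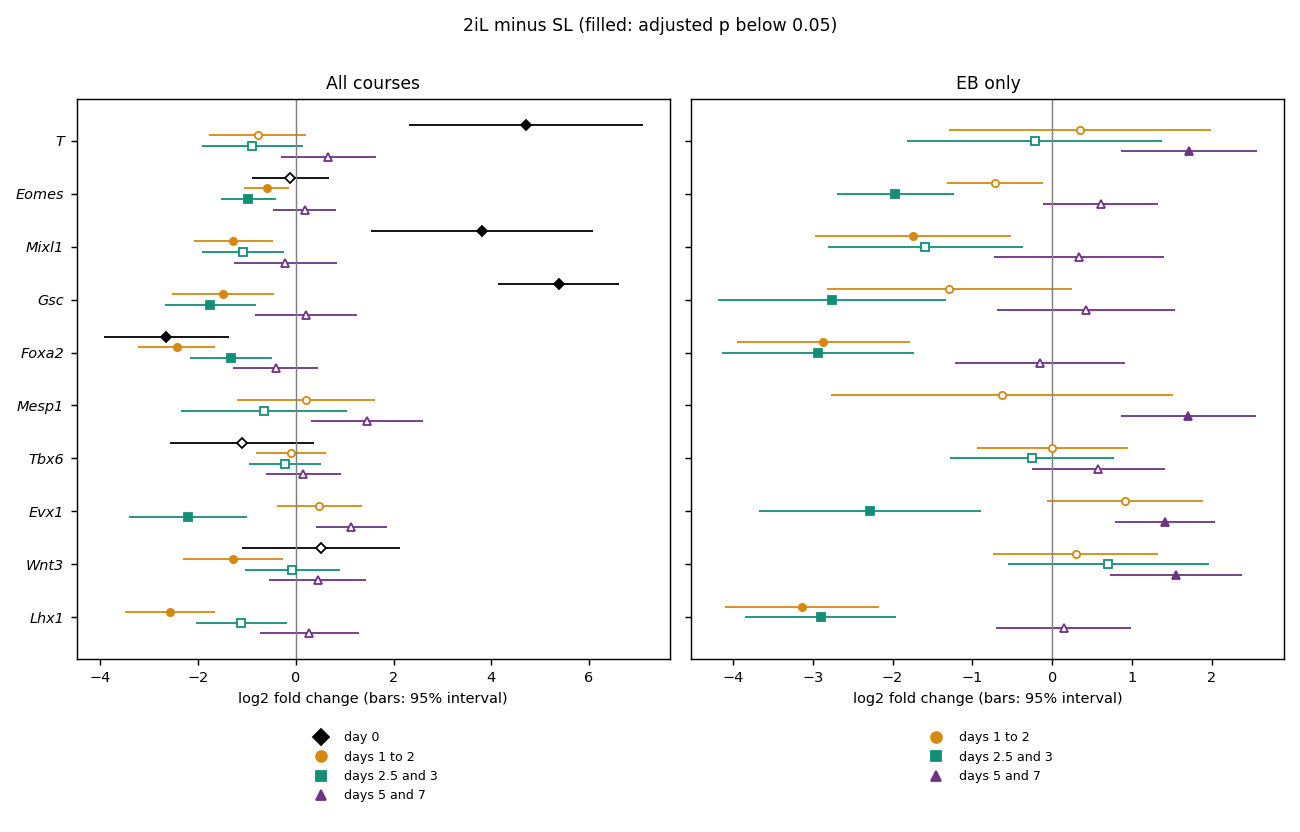
Log2 difference of cells from 2iL minus cells from SL for each gene, with its 95% interval, over all courses (left panel, with day 0) and within EB (right panel), 1 symbol for each window. Filled points passed the test at an adjusted p of 0.05. T, Gsc and Mixl1 lie above 0 at day 0, most genes lie below 0 on days 1 to 3, and on days 5 and 7 none passed over all courses while 4 passed above 0 within EB.

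For these genes, the day 5 and day 7 libraries of the EB course did not behave alike. In EBs from 2iL, 8 of the 10 genes were higher on day 5 than on day 7, by 10.4-fold for Mixl1, 5.30-fold for Gsc, 5.06-fold for T and 4.86-fold for Eomes. In EBs from SL, 4 of the 10 were, by at most 1.54-fold. On day 5 all 10 genes were higher from 2iL than from SL, T by 8.27-fold, whereas on day 7 this held for 5 of the 10, T by 1.30-fold. Foxa2, Gsc, Eomes and Lhx1, which were lower from 2iL on days 2.5 and 3, stood on day 7 at 0.422, 0.55, 0.789 and 0.833 of their level in EBs from SL. Each of these ratios compares 1 library with 1 other and has no replicate check. The share of all genes that was higher in each pair is not given here, so these counts have no share to compare with.

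Over all 3 courses on days 5 and 7, none of the 10 genes differed between the media by edgeR, where 3.3% of all genes were called, 1.41% higher and 1.89% lower. Of the 10, 2 had an unadjusted p under 0.05, and DESeq2 called none. Whether the course differences depended on the medium was tested for EB and for EpiSC against Neural in the 2 later windows. None of the 10 passed in any of the 4 tests by edgeR or by DESeq2, where 2.04%, 0.985%, 0.325% and 0.153% of all genes were called by edgeR. Unadjusted p-values under 0.05 were found for 2, 2, 1 and 1 of the 10. The values nearest to the threshold were Lhx1 at -3.24 ± 0.93 and Foxa2 at -2.20 ± 0.72 for EB on days 2.5 and 3 (adjusted p = 0.081 and 0.14, edgeR).

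Other genes of the streak and its derivatives were counted in lists, beside 23.8% of all genes higher and 23% lower in EB against Neural on days 5 and 7. In EB against Neural on days 5 and 7, 9 of 14 streak signalling genes were higher and none lower, with a median of 1.28 on the log2 scale, among them Fgf8 (5.03), the Nodal cofactor Foxh1 (3.28), the Nodal inhibitor Lefty1 (1.22) and the proprotein convertase Furin (0.62). Of 11 Wnt target genes, 5 were higher and none lower, with a median of 1.20, among them Sp5 (3.54), Lef1 (2.42), Notum (1.71) and Axin2 (1.20).

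The lists of cells that have left the streak were mixed. Of 11 paraxial genes tested, Msgn1 (6.78) and Hes7 (2.5) were higher in EB and Lfng (-1.52) and Dll1 (-2.09) lower, the last pair belonging to Notch signalling that neural progenitors use too. Of 12 lateral and cardiogenic genes, 3 were higher, a share near the 23.8% of all genes, among them Kdr (3.25) and Etv2 (2.96) of the blood and vessel lineage, and Gata4 (-2.09) and Pdgfra (-2.12) were lower. Of 11 anterior streak, node and endoderm genes, 5 were higher, among them Cer1 (6.54), a secreted Nodal and BMP inhibitor, and Otx2 (3.64), while Sox17 (-2.16) and Shh (-2.22), a floor plate and node signal, were lower. The extraembryonic endoderm markers summed to 4618 to 17258 CPM in the Neural libraries of these days and to 285 to 2841 CPM in EB. The part of that lineage in the levels of Gata4, Pdgfra and Sox17 was not tested.

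Of the neural lists, 6 of 8 progenitor genes and 5 of 8 neuronal genes tested were lower in EB and none higher. Of the 9 genes of the epithelial to mesenchymal transition, 2 were higher and 2 lower, a share near the 46.8% of all genes called. Of 6 trophoblast genes tested, 1 was higher and 3 lower. Of 8 pluripotency genes, 3 were higher and 4 lower.

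On days 2.5 and 3, where 19.6% of all genes were higher in EB and 20.1% lower, the same lists stood differently. Of the 14 streak signalling genes 5 were higher in EB, among them Fgf4 (2.66) and the Nodal coreceptor Tdgf1 (1.80), and 2 lower, Fgf17 (-1.32) and Wnt8a (-5.25). Of the 11 Wnt target genes 1 was higher (Tcf7, 1.23) and 7 lower, among them Nkd1 (-0.88), Cdx2 (-2.55) and Sp8 (-3.67), with a median of -1.24 on the log2 scale. Of 11 paraxial and of 12 lateral genes 4 each were lower and none higher, among them Meox1 (-7.16) and Hand1 (-3.76).

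Within EBs between the windows, 7 of 11 Wnt target genes, 8 of 12 lateral and cardiogenic genes and 6 of 12 anterior streak and endoderm genes rose and none of these lists had a fall. Of the paraxial genes 5 of 11 rose and 2 fell. Over all genes tested, 20.8% rose and 23.4% fell between these windows. Between EB and EpiSC on days 5 and 7, 11 of 12 lateral and cardiogenic genes and 6 of 11 Wnt target genes were higher in EB, none lower, while 2 of 14 streak signalling genes were higher and 3 lower. Over all genes tested there, 9.59% were higher in EB and 10.2% lower. The bar plot of list counts sets these beside the 10 genes.

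**Figure D5:**
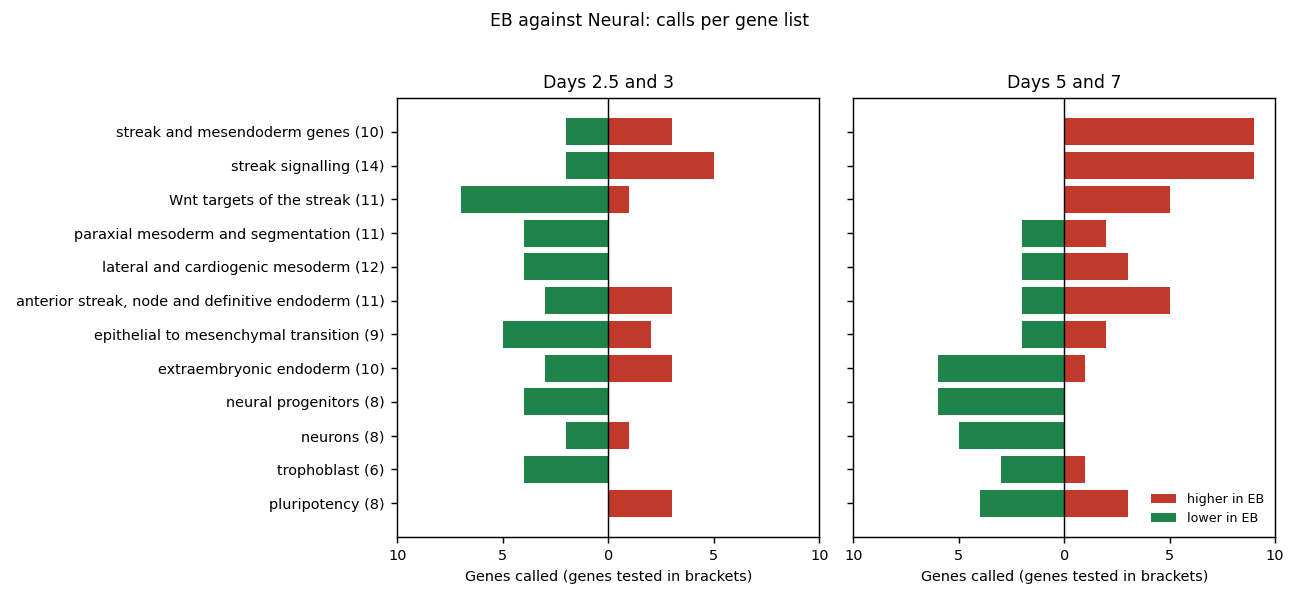
Number of genes called in EB against Neural in each gene list, on days 2.5 and 3 (left) and days 5 and 7 (right), with bars to the right for genes higher in EB, bars to the left for genes lower in EB and the number tested in brackets. The 10 streak and mesendoderm genes go from 3 higher and 2 lower to 9 higher and none lower.

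Across the 45 libraries the levels of the 10 genes went together to unequal degrees. All 45 pairs had a correlation above 0, with a median of 0.61. The closest pair was Eomes and Mixl1 (Pearson 0.92 on log2(CPM + 0.1)), followed by Foxa2 and Lhx1 (0.81), T and Mesp1 (0.79), T and Evx1 (0.79) and T and Mixl1 (0.78). The loosest was Gsc and Foxa2 (0.18). Libraries of 1 course and medium follow one another in time, and low levels are set by few reads, so these values are descriptions.

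Among 13267 genes with at least 5 CPM in a library, those most like T over the 45 libraries were Aplnr (Pearson 0.81), Samd3 (0.81), Tnfrsf1a (0.81), Cxxc5 (0.79) and BC023829 (0.78). None of these 5 was among the 5 most like T by Spearman correlation. Those most like Foxa2 were Bag2 (0.95), Egflam (0.94), Spats2 (0.93), Bmp2 (0.92) and Dgkk (0.92), of which 3 were also among the first 5 by Spearman correlation.

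Genes that lie beside Evx1 and Lhx1 on the other strand had few reads. The gene antisense to Evx1, 5730457N03Rik, reached at most 0.0799 CPM, and Lhx1os, which starts near Lhx1 on the other strand, at most 0.276 CPM. Both lie far below the 16.5 and 34.2 CPM that Evx1 and Lhx1 reached, and the libraries were strand-specific. Tbx6 has a neighbour on its own strand within 2000 bases, Ypel3, which does not overlap it. Ypel3 reached 31.6 CPM, also in EBs from 2iL on day 5, while Tbx6 reached at most 2.85 CPM in any library, and the Pearson correlation of the pair over the 45 libraries was 0.76. Whether reads of Ypel3 enter the Tbx6 count was not tested.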

How the data were processed

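RNA from 45 bulk cultures was rRNA-depleted, made into strand-specific libraries and sequenced by the authors, who aligned reads to GRCm38 with TopHat2 and counted them per gene with featureCounts (versions not given in the sources used here). The deposited values are raw counts, 1 column per library, of 35372 genes; no sample column was left unused. Library totals, 13093226 to 39804240 reads, set the precision, and intervals and floors cover counting error only.

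Groups came from the labels. CPM was computed over the library total. Tests used edgeR 4.0.16 (R 4.3.3; TMM factors, filterByExpr, quasi-likelihood F-test, Benjamini-Hochberg adjustment over all genes tested at 0.05). DESeq2 1.42.0, a tool that the submitters' processing notes name, was an alternative. Courses were compared with medium and day as a block, days with medium as a term and media with course and day as a block, over 41, 45 and 41 libraries. Day 0 was compared alone, and day 1 with day 0 within 2iL and EB windows between media after the values were seen. The code was tested on simulated data. All replicate numbers in the labels are 1 for a medium, course and day, so they pair no samples, and the block stands for shared days, media or courses.

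The genes described, the lists beside them and the tests were chosen with earlier results of these data known. Named genes are all 10 members and, of each list, the 2 highest and 2 lowest called log2 differences in EB against Neural in the 2 later windows; other list genes at day 0 were chosen after their values were seen. Likeness used log2(CPM + 0.1) over genes with at least 5 CPM in a library. Promoter entries are those of RefSeq for GRCm38.p6. Alternatives were DESeq2, library totals, no filter on low counts, no block, single courses and leaving out libraries.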

Additional observations from a re-analysis of the deposited data

Results flagged for a closer look

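Among the 4 EB libraries of days 5 and 7, T in EBs from 2iL on day 5 (369.7 CPM) stood apart from the other 3, of which the highest was at 73.1 CPM. At day 0, Foxa2 in SL (2.74 CPM) stood apart from the 3 libraries from 2iL, of which the highest was at 0.625 CPM. Evx1 in the day 0 library of the 2iL Neural course (0.327 CPM) stood apart from the other 3 at 0.133 CPM or less.

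On days 1 to 2, Mixl1 (3.51 CPM) and Wnt3 (5.50 CPM) in EpiSC cells from SL on day 2 stood apart from the other 5 EpiSC libraries, whose highest values were 1.49 and 1.81 CPM. In the Neural course, Wnt3 from SL on day 2 (2.04 CPM) and Gsc from SL on day 1 (0.384 CPM) stood apart from the other 5 libraries, whose highest values were 0.762 and 0.162 CPM. These 7 came from 88 groups of 4 or 6 libraries, and chance sets about 5% of groups apart in this way. The libraries of a window differ in day and medium and are not replicates of one culture.

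The difference between EBs from 2iL and EBs from SL changed between days 2.5 and 3 and days 5 and 7 for 5 genes by the quasi-likelihood test of edgeR (Benjamini-Hochberg adjustment over all genes tested). The change was 3.70 for Evx1 (adjusted p = 0.0098, edgeR), 3.18 for Gsc (0.043), 3.05 for Lhx1 (0.0074), 2.79 for Foxa2 (0.043) and 2.57 for Eomes (0.0062) on the log2 scale. It was tested after the values were seen, and none of the 5 passed when EB day 3 was left out.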

How the results depend on the processing

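Of 88 member differences called, 53 stayed called under every alternative run for them. Over 867 values under alternatives, 743 stayed called in the same direction, 123 lost the call and 1 turned: Wnt3 between the media on days 1 to 2 was 0.30 within EB, beside -1.29 over all courses.

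Counts of the 10 genes called are given here with the reported count in brackets. EpiSC against Neural on days 1 to 2 had 1 with DESeq2 and 1 with library totals (0). Without the replicate block, EB against Neural on days 2.5 and 3 had 2 (5) and the media on those days 0 (4). Fitted on 1 course and day 0, EB from day 0 had 3 (5) and late EpiSC 0 (1). Late Neural had 1 with DESeq2, 1 with library totals, 1 with no filter on low counts and 1 without the replicate block (2). Between media, days 1 to 2 had 3 within EB and 1 within Neural (6), days 2.5 and 3 had 0 within EpiSC and 0 within Neural (4), and days 5 and 7 had 4 within EB (0). DESeq2 called 1 within EB on days 5 and 7 (4) and 2 for the change between windows (5).

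Leaving out 1 library, or 1 day of a medium or course, gave 3 to 4 for EB against Neural on days 2.5 and 3 (5), 0 to 1 for late EpiSC (1) and 1 for late Neural (2). Between media it gave 3 to 5 on days 1 to 2 (6), 1 to 5 on days 2.5 and 3 (4) and 0 to 1 on days 5 and 7 (0). It gave 1 to 2 for day 1 against day 0 (2), and within EB 2 to 3 on days 2.5 and 3 (5), 1 to 4 on days 5 and 7 (4) and 0 to 7 for the change (5). EpiSC from SL on day 5 was the lone library of its day and could not be left out of the fit of days. The cause was not tested.

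Counts over all genes moved by more than 1.5 times in several comparisons. EpiSC against Neural on days 1 to 2 went from 350 to 759 with DESeq2, 1607 with library totals, 154 without the block and 9 to 244 with 1 medium and day left out. Without the block, EpiSC against Neural on days 2.5 and 3 went from 2184 to 742, EB against EpiSC from 4785 to 2945 and then, on days 5 and 7, from 3261 to 2033, the media from 3120 to 1432 on days 2.5 and 3 and from 559 to 153 on days 5 and 7 (873 with DESeq2), and day 1 against day 0 from 4663 to 3054. The 4 tests of whether course differences depended on medium went from 346 to 160, from 167 to 0 (407 with DESeq2), from 55 to 91 with DESeq2 and from 26 to 15 (109 with DESeq2). Left-out days gave as few as 955, 2612, 2875 (late EpiSC, 4325) and 149 (media, days 5 and 7), and within EB 1039 to 1263 (3204), 457 (2275) and 146 to 1716 (871). Library totals moved the median of all genes by 0.12 in EpiSC against Neural on days 1 to 2 and by 0.10 in EB against Neural on days 2.5 and 3.

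Genes near 0 reads, Mesp1 and Evx1 above all, are limited by depth. With 1 SL library at day 0, the spread there is that of 2iL.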
